A study of Mus musculus with 38 samples.

Results

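Glucose enters a brown adipocyte through transporters of the Slc2a family and is trapped by hexokinases, after which glycolysis splits it to pyruvate and yields ATP. Side branches store it as glycogen, feed the pentose phosphate pathway, which supplies NADPH and ribose, or end in lactate. Brown adipose tissue is known for high glucose uptake when it makes heat, and its insulin-sensitive transporter is Slc2a4. The 37 genes described here cover these steps: 3 glucose transporters, 3 hexokinases, 4 enzymes of upper glycolysis, 4 enzymes that make or remove the regulator fructose 2,6-bisphosphate, 10 genes of lower glycolysis, 4 genes of lactate and its carriers, 5 genes of glycogen and fructose bisphosphatase, and 4 genes of the pentose phosphate pathway. They were chosen by gene name, 37 of the 29411 names on the array, with earlier results of these data known. All 37 passed the filter on dim probes, as did 21625 names in all.

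The study followed brown adipose tissue of C57BL/6J mice, an inbred laboratory strain, from weaning at 3 to 4 weeks of age. LFC mice ate a control diet with 10% of calories from fat, and HFC mice a high fat diet with added sucrose and 60% of calories from fat. The groups HF5, HF20 and HF75 ate the HFC diet together with 5, 20 or 75 µg of Kal-1, an ethnobotanical formulation in water. LFC and HFC have 10 arrays each, at days 6, 10 and 14 and weeks 0, 3, 6, 9, 12, 15 and 18, and each dose has 6 arrays, at weeks 3 to 18. The labels speak of 30 animals a group, with 5 taken every 3 weeks, but whether an array holds 1 animal or a pool is not stated. The series text speaks of 3 biological replicates, yet the arrays analysed here hold 1 for each group at each labelled time, so the time points serve as replicates and p-values measure the spread between them, which may be technical. For the slopes over days the single arrays served as replicates instead.

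Levels are log2 signal minus the array's own 75th percentile, so a difference of 1 is a 2-fold change. They can be compared between arrays for 1 gene but not between genes. That percentile ran from 35.1 to 1209 intensity units, and 11 arrays above 600 are called bright here: 4 of LFC, 2 of HFC, 4 of HF20, 1 of HF75 and 0 of HF5. The brown adipocyte list, which holds Ucp1 and 8 other genes, had a mean level between 0.54 and 4.50 on 37 arrays and of -2.99 on the HF75 array of Week 3. The white adipocyte and macrophage lists were both at their highest on that array, 0.31 and 1.80. That array goes against its tissue label, and the counts and members past the threshold among doses are therefore given with and without it. In whole tissue, fewer cells of a type and less RNA per cell cannot be told apart.

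The members' levels moved with brightness. On the bright arrays 30 of the 37 members had a higher median than on the 27 dim ones. Within LFC alone, where diet is the same, 29 members were higher on the 4 bright arrays, and the median of bright minus dim was 1.86 over the members and -0.27 over all genes tested. Marker lists differed there too. The brown adipocyte mean was 2.89 to 4.00 on bright and 0.62 to 1.74 on dim LFC arrays, and the endothelial mean 0.87 to 1.26 and 3.79 to 4.15. Erythroid, smooth muscle and lymphocyte lists were also lower on bright arrays without overlap, while the skeletal muscle, white adipocyte and macrophage lists overlapped. The separate parts of brightness and of these lists were not tested. Hk2, the insulin-regulated hexokinase of fat and muscle, had a median of 5.10 on bright and 1.61 on dim arrays. Slc2a1, the basal glucose transporter, went the other way, with -0.16 and 2.29. Aldoa, the aldolase of glycolysis, was saturated on 11 of 11 bright and 8 of 27 dim arrays, so its levels on those arrays are lower bounds set by the scanner. Gpi1, Gapdh, Ldhb, Tkt and Taldo1 were saturated on 9 or 10 of the 11 bright arrays. The part of brightness in the results below was not tested beyond the values given with them.

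The clearest contrast was between HF20 and HF75. Of the 37 members, 28 had their highest median over weeks 3 to 18 in HF20, and 24 had their lowest in HF75. The moderated F test of differences among the 3 doses passed for 16 members, 43.2% of the list, where 13.7% of all genes tested passed (2971 of 21625). Of these 16, 15 were lower in HF75 than in HF20, a direction in which 7.1% of all genes passed, and 1, Slc2a1, was higher, as 6.64% of all genes were. Before adjustment 26 members had p under 0.05, against 37.3% of all genes. Over all 37 members the median of HF75 minus HF20 was -1.67, against 0.27 over all genes tested. With brightness class in the model 0 members passed, and 0 passed without the HF75 array of Week 3. The count was also 0 with normexp background correction and with no filter on dim probes. In the first pair of fits most members kept their direction, with 29 and 30 of 37 lower in HF75 and medians of -0.77 and -1.36. HF20 was also above HF5, by 0.44 to 2.89 for the 15 members lower in HF75, while HF75 minus HF5 ran from -1.69 to -0.27 for them. For Slc2a1 HF20 minus HF5 was -1.88 and HF75 minus HF5 was 0.10. Adjusted p-values given below with HF75 minus HF20 are those of the F test over the 3 doses. They do not test that pair alone.

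**Figure D1:**
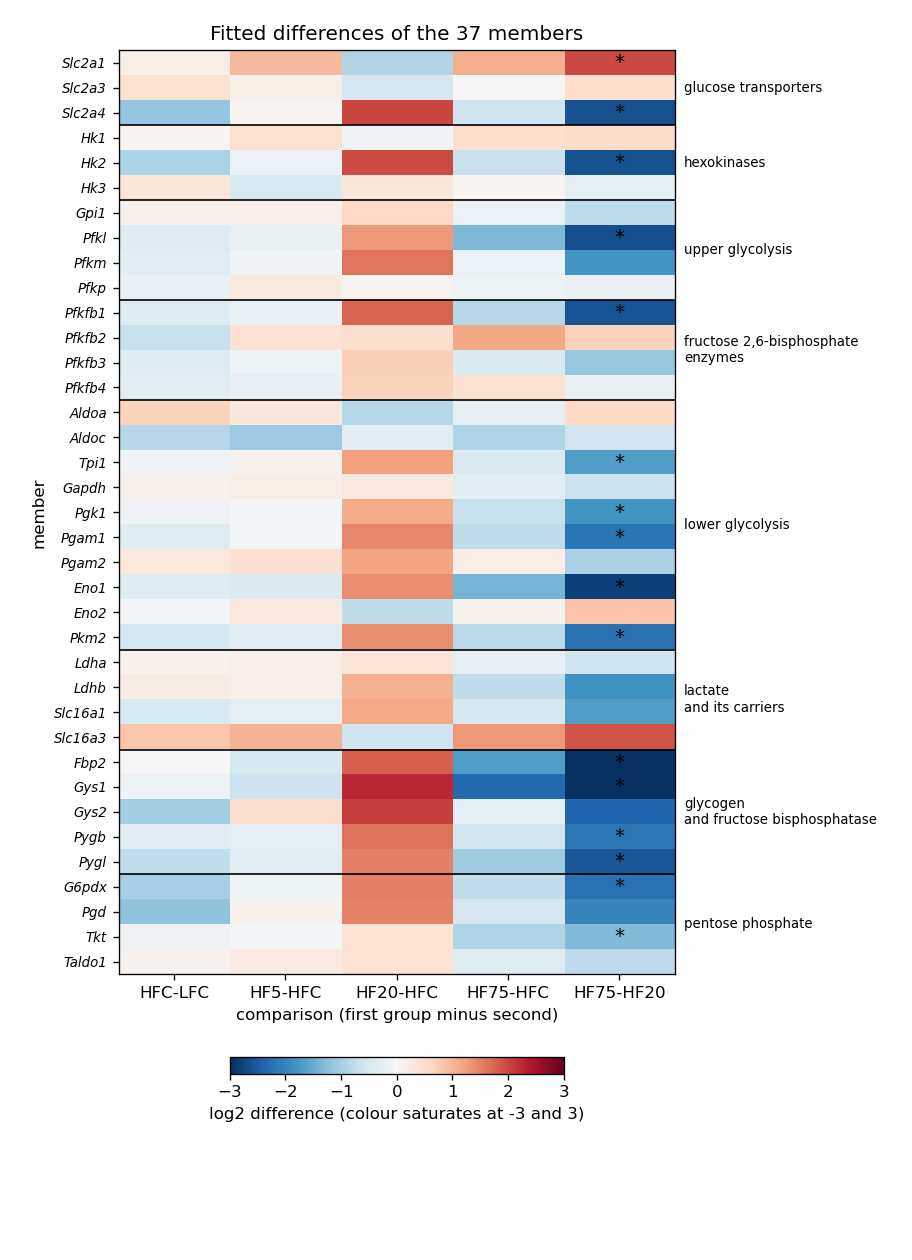
Fitted log2 differences of the 37 members (rows, grouped by role) in 5 comparisons (columns, first group minus second), with red for higher, blue for lower and an asterisk for the 16 members that passed the test of differences among doses. The column of HF20 minus HFC is mostly red, with 30 of 37 members higher, and that of HF75 minus HF20 mostly blue, with 30 lower.

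Among the transporters, Slc2a4 and Slc2a1 moved in opposite directions. Slc2a4 had a lowest, median and highest level of 2.66, 5.71 and 6.40 in HF20, and of 1.66, 2.19 and 3.84 in HF75. It was lower in HF75 at 6 of 6 weeks, by 2.61 on average (SE 0.74, limma F test adjusted p = 0.046), although the groups overlapped. The HF20 arrays of weeks 9 and 18, both dim, sat among the HF75 values. Slc2a1 ran from -0.40 through a median of 0.06 to 2.74 in HF20, and from 0.84 through 2.64 to 3.93 in HF75. It was higher in HF75 at 5 of 6 weeks, by 1.99 (SE 0.60, limma adjusted p = 0.044), and by 1.60 without the HF75 array of Week 3. The 4 HF20 arrays at the bottom were the 4 bright ones. Slc2a3, a high-affinity transporter, ranged over the 38 arrays from -4.00 to 1.01 and did not pass.

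**Figure D2:**
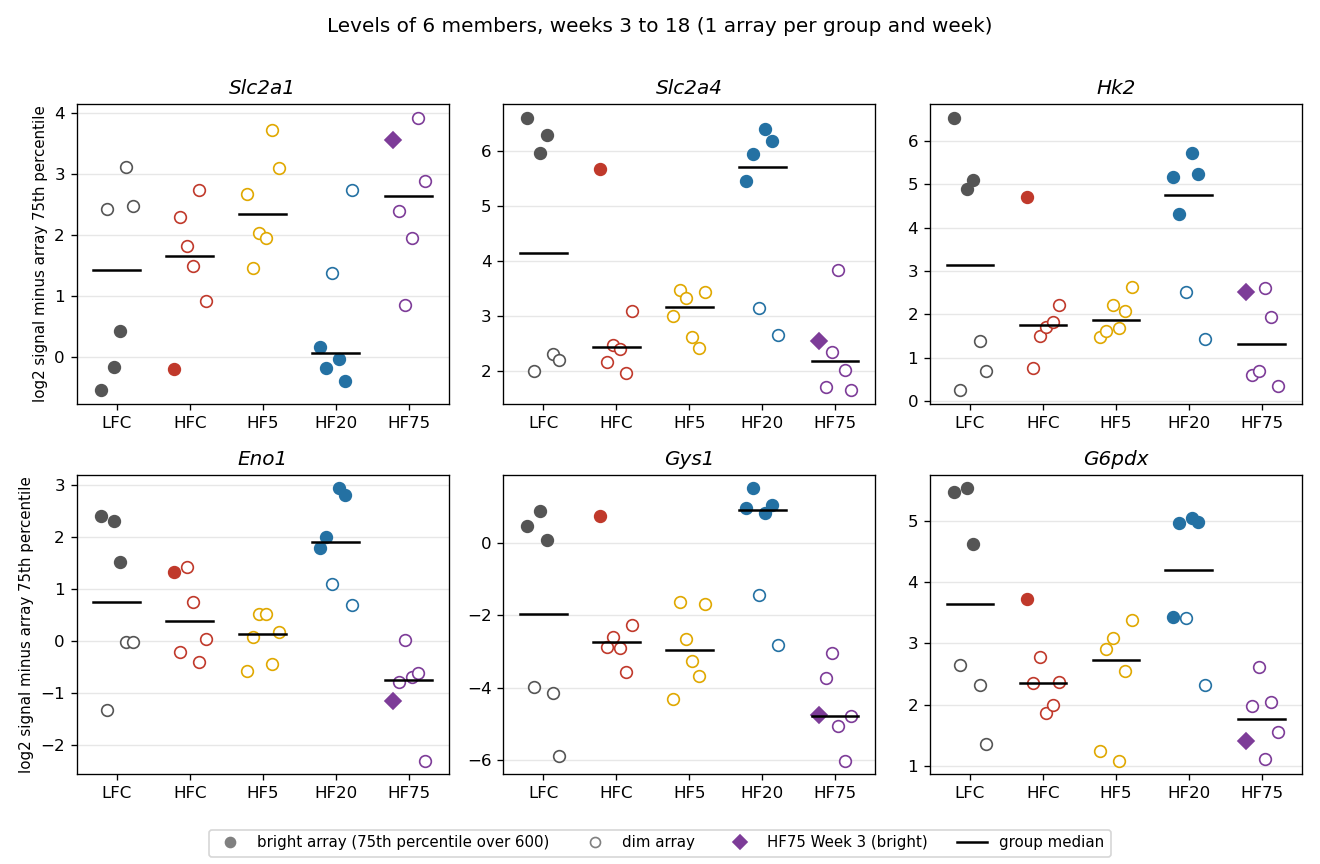
Levels (log2 signal minus the array's 75th percentile, vertical axis) of 6 members in each group over weeks 3 to 18, 1 point per array, with filled points for bright arrays, open points for dim ones, a diamond for the HF75 array of Week 3 and a bar for the group median. In HF20 the 4 filled points lie above the 2 open ones for Slc2a4, Hk2 and Gys1 and below them for Slc2a1.

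Among the hexokinases, Hk2 passed and Hk1 and Hk3 did not. Hk2 had 1.44, 4.75 and 5.72 as its lowest, median and highest level in HF20 and 0.35, 1.31 and 2.62 in HF75. The difference was -2.62 (SE 0.77, limma F test adjusted p = 0.047). HF75 was lower at 6 of 6 weeks, with the dim HF20 arrays of weeks 9 and 18 inside its range. With brightness class in the model the difference was -0.999. Hk1, the constitutive hexokinase, had medians of 2.70 and 3.30 with overlapping ranges, and Hk3, found mainly in blood cells, went from -5.58 to -0.43 over the 38 arrays.

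In upper glycolysis, Pfkl, the liver-type subunit of phosphofructokinase, ran from 2.22 to 4.36 in HF20 (median 3.68) and from -0.71 to 1.71 in HF75 (median 1.14). The groups did not overlap, and the difference was -2.63 (SE 0.64, limma F test adjusted p = 0.036). Of the bifunctional enzymes that set fructose 2,6-bisphosphate, Pfkfb1 passed, at 2.60 lower in HF75, with medians of 2.52 in HF20 and -0.81 in HF75. Pfkm, Pfkp, Gpi1, Pfkfb2, Pfkfb3 and Pfkfb4 did not pass. Over the 38 arrays Gpi1, the glucose phosphate isomerase, ran from 5.27 to 7.01, and Pfkp, the platelet-type subunit, from 0.63 to 2.04. Among the bifunctional enzymes the ranges were -4.82 to -1.21 for Pfkfb2, 2.60 to 5.96 for Pfkfb3 and -1.39 to 1.29 for Pfkfb4.

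Of the 10 genes of lower glycolysis 5 passed, all lower in HF75: Eno1, Pkm2, Pgam1, Pgk1 and Tpi1. Eno1, an enolase, had the smallest p of the members. Its level was 0.70, 1.89 and 2.93 (lowest, median, highest) in HF20 and -2.30, -0.74 and 0.02 in HF75. No HF75 array reached the lowest HF20 array, and the difference was -2.80 (SE 0.48, limma F test adjusted p = 0.034). It was -2.67 once the Week 3 array of HF75 was left out. Pkm2, pyruvate kinase (now Pkm), had a median of 3.57 in HF20 and 1.48 in HF75, again without overlap. Pgk1 and Tpi1 were lower in HF75 by 1.80 and 1.67, close to the threshold at limma F test adjusted p-values of 0.0495 and 0.0496. Pgk1 was saturated on 3 of the 6 HF20 arrays. Gapdh, which forms NADH in this stretch, ranged from 4.71 to 7.46 over the 38 arrays, Aldoc from -5.53 to -0.89 and Eno2 from -5.93 to -2.49. The 4 genes of lactate (Ldha, Ldhb and the carriers Slc16a1 and Slc16a3) did not pass. Slc16a3, the carrier that exports lactate, was nearest, 1.89 higher in HF75 with an adjusted p of 0.057 by the limma F test. Over all arrays Ldha, which favours lactate, ranged from 5.18 to 7.36, Ldhb from 2.87 to 6.86 and the carrier Slc16a1 from 1.05 to 5.28.

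Of the 5 genes of glycogen and fructose bisphosphatase 4 passed, the largest share of any role here. Gys1, the glycogen synthase of muscle and most tissues, had -2.81, 0.90 and 1.51 in HF20 and -6.02, -4.77 and -3.03 in HF75. The difference was -4.59 (SE 0.96, limma F test adjusted p = 0.034), and -4.30 without the HF75 array of Week 3. However, only 1 of the 6 HF75 arrays had Gys1 well above background, so the size of the difference rests on dim spots. Fbp2, a fructose bisphosphatase, was 3.45 lower and reached that mark on 3 of the 6 HF75 arrays. With normexp background correction, which treats dim spots differently, the differences were -1.36 for Gys1 and -1.09 for Fbp2, so their sizes are poorly determined. The glycogen phosphorylases, which release glucose units from glycogen, both passed: Pygb was 2.16 lower and Pygl 2.57 lower, with Pygl saturated on 2 of the 6 HF20 arrays. Gys2, the liver-type synthase, had medians of 2.40 and 0.15 and did not pass.

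In the pentose phosphate pathway G6pdx, which catalyses its first and NADPH-forming step, had 2.31, 4.203 and 5.04 in HF20 and 1.11, 1.77 and 2.61 in HF75. It was lower at 6 of 6 weeks, by 2.24 (SE 0.63, limma F test adjusted p = 0.045), with some overlap between the groups. Tkt, transketolase, was 1.32 lower without overlap, although 4 of the 6 HF20 arrays were saturated for it. Pgd and Taldo1 did not pass, and Taldo1, transaldolase, ranged from 5.10 to 7.23 over the 38 arrays. The HF75 and HF20 values did not overlap, with HF75 lower, for 14 of the 37 members, against 3.81% of all genes tested, and for 0 members with HF75 higher, against 0.925%.

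Without the HF75 array of Week 3 each of the 16 kept its direction. Slc2a4, Hk2, Pfkl and Pfkfb1 were then at -2.37, -2.50, -2.26 and -2.38. In lower glycolysis Pkm2, Pgam1, Pgk1 and Tpi1 were at -1.98, -1.87, -1.54 and -1.46. Fbp2, Pygb, Pygl, G6pdx and Tkt were at -2.90, -2.02, -2.25, -2.10 and -1.18.

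The weeks were not alike. HF20 and HF75 were of 1 brightness class at weeks 3, 9 and 18, where the median member difference was -1.82, -0.80 and -0.72, and of different classes at weeks 6, 12 and 15, where it was -2.03, -1.30 and -1.82. At weeks 9 and 18, which leave out the HF75 array of Week 3, 34 and 27 of the 37 members were lower in HF75. Leaving out week 3, 6, 12 or 15 left 0 members past the threshold, and leaving out week 9 or 18 gave 19 and 22, with 24.8% and 25.1% of all genes passing. Without the time point as a block 8 members passed, and 6.07% of all genes did. The 12 skeletal muscle markers had a mean level of -3.92 to 4.66 in HF20 and -2.85 to 5.76 in HF75, with all 12 lower in HF75 in the fit. With that mean as a covariate 0 members and 0 of all genes passed. The members' median difference was then -1.62, with 29 of the 37 lower in HF75. Other cell type lists moved too. In HF75 minus HF20, 8 of 9 brown adipocyte markers were lower (median -2.25, 1 past the threshold), while 5 of 5 endothelial markers (median 1.81, 3 past it), 4 of 4 smooth muscle markers (1.63, 1 past it) and 6 of 6 erythroid markers (1.07, 0 past it) were higher. These values include the HF75 array of Week 3. At the later weeks the brown adipocyte list mean ran from 2.09 to 4.50 in HF20 and from 1.18 to 2.36 in HF75. The part of these lists in the members' differences was not tested.

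**Figure D3:**
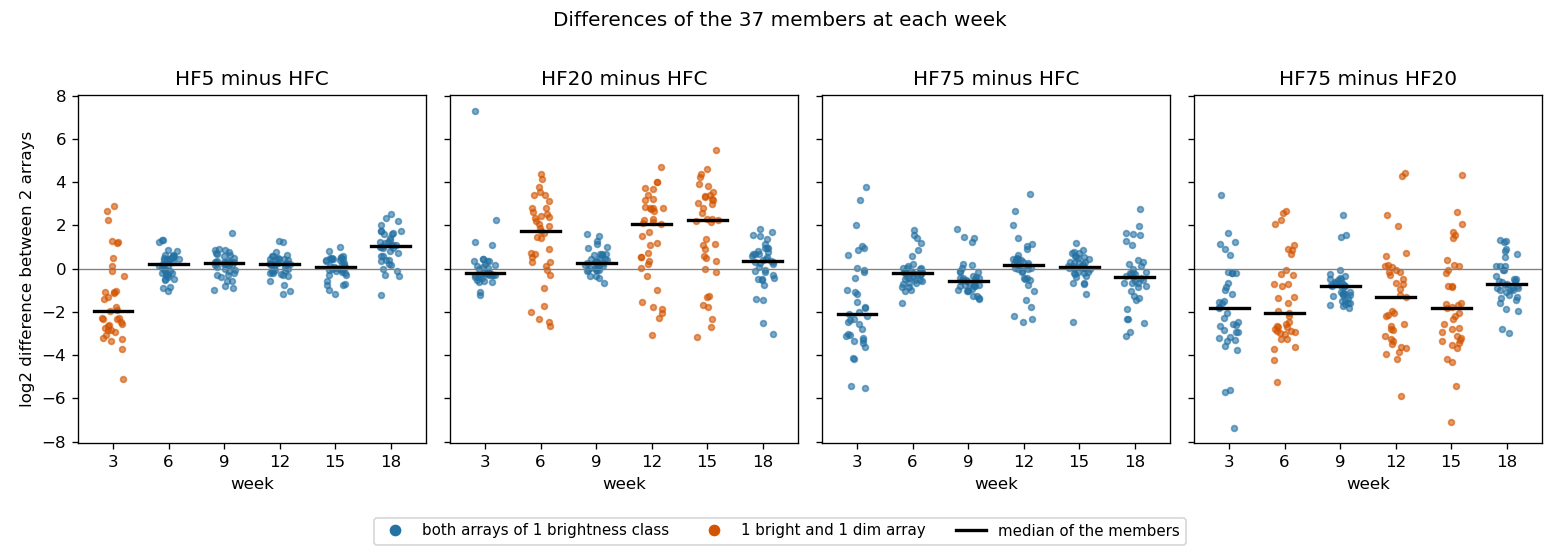
Log2 differences between 2 arrays of the same week (vertical axis) for the 37 members (points) and their median (bar), in blue where both arrays were of 1 brightness class and in orange where they were not. The medians of HF20 minus HFC are 1.76, 2.09 and 2.23 at weeks 6, 12 and 15 (orange) and -0.21, 0.28 and 0.33 at weeks 3, 9 and 18 (blue).

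Regulatory sequence is shown for 5 genes, to set members that differed in direction or call side by side: the transporter and hexokinase of the contrast above, Slc2a1 and Hk2, the enzyme Pgk1, and the isoenzyme pair Pgam1 and Pgam2, of which Pgam1 passed and the muscle type Pgam2 did not. Each is the run of 250 bases before the annotated start, from RefSeq on GRCm38.p6, 5′ to 3′ on the gene's strand. Capitals mark ACGTG or its reverse complement CACGT, the core letters of hypoxia response elements and of the E-box CACGTG, with overlapping matches kept. The windows are chr4:119108495-119108744 (plus strand) for Slc2a1, chr6:82774455-82774704 (minus) for Hk2, chrX:106186850-106187099 (plus) for Pgk1, chr19:41911621-41911870 (plus) for Pgam1 and chr11:5803797-5804046 (minus) for Pgam2.
Slc2a1: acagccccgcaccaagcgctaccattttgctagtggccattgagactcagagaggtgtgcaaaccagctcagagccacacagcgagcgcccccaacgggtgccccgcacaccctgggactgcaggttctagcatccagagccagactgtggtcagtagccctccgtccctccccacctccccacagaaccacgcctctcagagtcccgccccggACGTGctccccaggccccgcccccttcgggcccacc
Hk2: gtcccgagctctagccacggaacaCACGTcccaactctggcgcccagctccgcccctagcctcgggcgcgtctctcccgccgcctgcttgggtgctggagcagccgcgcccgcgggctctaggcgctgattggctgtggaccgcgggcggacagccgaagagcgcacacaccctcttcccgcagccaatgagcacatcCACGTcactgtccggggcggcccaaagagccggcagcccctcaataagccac
Pgk1: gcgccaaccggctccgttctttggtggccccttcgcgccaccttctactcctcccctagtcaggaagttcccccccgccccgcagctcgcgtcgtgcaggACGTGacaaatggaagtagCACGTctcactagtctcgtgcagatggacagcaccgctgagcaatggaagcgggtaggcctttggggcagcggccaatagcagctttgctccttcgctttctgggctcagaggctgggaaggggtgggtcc
Pgam1: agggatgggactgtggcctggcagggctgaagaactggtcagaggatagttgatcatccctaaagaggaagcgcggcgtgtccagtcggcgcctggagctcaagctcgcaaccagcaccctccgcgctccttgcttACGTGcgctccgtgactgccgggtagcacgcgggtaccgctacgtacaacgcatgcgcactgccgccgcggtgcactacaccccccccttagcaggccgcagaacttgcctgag
Pgam2: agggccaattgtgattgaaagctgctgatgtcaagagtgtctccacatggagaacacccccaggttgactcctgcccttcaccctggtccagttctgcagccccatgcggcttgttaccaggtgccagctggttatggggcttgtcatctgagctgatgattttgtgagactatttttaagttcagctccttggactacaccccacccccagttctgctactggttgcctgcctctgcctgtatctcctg
Slc2a1 and Pgam1 hold the motif 1 time, Hk2 and Pgk1 2 times and Pgam2 0 times in these letters. Windows were given for 34 of the 37 members, and 16 of these (47.1%) held the motif in at least 1 window, against 18.5% of the 27025 genes with a window. The 34 members had 52 windows and the 27025 genes had 32851. Members thus had more windows each, which raises their share. Of the 15 members with a window that passed among doses, 8 held it (53.3%). A match is a run of letters, not a measured binding site.

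HF20 against HFC asked what the middle dose added to the high fat diet, and 0 members passed the adjusted threshold, as did 0 of all genes tested. Before adjustment 17 members had p under 0.05, all higher in HF20, where 13.4% of all genes were higher at that p and 32.8% differed in either direction. Pygb had the smallest p. In HFC its arrays of weeks 3 to 18 ran from -2.13 to 1.32, and in HF20 from -0.65 to 2.26. It was higher in HF20 at 6 of 6 weeks, by 1.62 (SE 0.45, limma adjusted p = 0.12). Eno1, Slc2a4, Pfkm, the muscle-type phosphofructokinase subunit, and Tpi1 followed, with differences of 1.40, 2.002, 1.61 and 1.23 and limma adjusted p-values of 0.12. All 5 genes of glycogen and fructose bisphosphatase had p under 0.05 before adjustment, from 1.51 to 2.26 higher. The median over the 37 members was 1.12, against -0.18 over all genes. In the same comparison 12 of 12 skeletal muscle markers (median 1.59) and 6 of 9 brown adipocyte markers (1.003) were higher in HF20, and 5 of 5 endothelial and 6 of 6 erythroid markers were lower (both -1.54), and their part was not tested. The members' median was 0.28 with brightness class in the model, with 1 member at p under 0.05, and 0.21 at the 3 weeks when both arrays were of 1 class. Leaving out Week 3 gave 10 members past the adjusted threshold, Pygb, Eno1, Slc2a4 and Tpi1 among them, in a fit where 3344 of all 21625 genes passed.

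HF75 and HFC arrays were of 1 brightness class at all 6 weeks. No member passed here either (0 of all genes), and 7 had p under 0.05 before adjustment, against 9.26% of all genes. Of the 7, 2 were higher in HF75 and 5 lower, where 4.95% and 4.31% of all genes were. The difference had a median of -0.44 over the members and -0.03 over all genes, with 29 members lower in HF75. Eno1 was lower at 6 of 6 weeks, with a mean level of -0.92 ± 0.77 (SD, n = 6) in HF75 and 0.49 ± 0.79 in HFC, a difference of -1.41 (SE 0.48, limma adjusted p = 0.53). Tkt was lower at 6 of 6 weeks, by 0.90 (SE 0.31, same adjusted p). Gys1 and Fbp2 had differences of -2.32 and -1.67, with the dim spots named above, and Fbp2 was at -1.11 without the Week 3 array of HF75 and -0.92 without Week 3 in both groups. Pfkfb2, a kinase and phosphatase of fructose 2,6-bisphosphate, was 1.17 higher, at 6 of 6 weeks. Of the arrays compared, the kept probe of Pfkfb2 was well above background on 3 of 6 in HFC and 5 of 6 in HF75, and its 4 detected probes did not share a sign. Without the HF75 array of Week 3 the median was -0.28 and 3 members, Eno1, Tkt and Pfkfb2, kept p under 0.05, at -1.27, -0.76 and 1.26, while Gys1 was at -2.03 and no longer did. In the comparison of all arrays 8 of the 9 brown adipocyte markers were lower in HF75, with a median of -1.60. At Week 3 the mean of that list was -2.99 in HF75 and 3.32 in HFC. At the later weeks it ran from 1.18 to 2.36 in HF75 and from 1.43 to 2.78 in HFC, so the median rests largely on the HF75 array of Week 3. The part of these markers in the result was not tested.

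HF5 against HFC gave 0 members past the adjusted threshold and 0 with p under 0.05, where 0% and 5.52% of all genes did. The median over the members was -0.02, against 0.02 over all genes, with 18 higher and 19 lower. At the 5 weeks with both arrays of 1 brightness class, which leave out Week 3, 32 members were higher and 5 lower, with a median of 0.34, against 0.04 over all genes. The 5 smallest p-values were those of Slc16a3 (1.01 higher), Hk1 (0.45 higher), Slc2a1 (0.98 higher), Aldoc (1.08 lower) and Pfkp (0.26 higher), all with limma adjusted p-values from 0.81 to 0.87. Aldoc, the brain-type aldolase, was not well above background on any HF5 array. With HF5 set at the level of the dimmest detected probes, the mean level of Aldoc in HFC was 1.099-fold higher. Only 4 of 6 HFC arrays measured it, so this is not a firm bound. The data do not show that the groups were alike: the 95% intervals of 8 members lay within 2-fold either way, and over all members they reached from -2.62 to 2.86 on the log2 scale. At Week 3, where HFC was bright and HF5 dim, the median difference was -1.98, and at the other weeks it ran from 0.08 to 1.06.

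HFC against LFC addressed the diet itself over 10 time points. Again 0 members and 0 of all genes passed, and 1 member, Pgd, had p under 0.05, against 6.82% of all genes. Pgd, which forms NADPH in the pentose phosphate pathway, had a lowest, median and highest level of 1.33, 2.75 and 5.66 in LFC and 1.41, 1.86 and 3.36 in HFC. The high LFC values were those of Weeks 0, 3, 9 and 12, the 4 bright LFC arrays. The difference was -1.20 (SE 0.53, limma adjusted p = 0.65), with HFC lower at 7 of 10 time points. G6pdx and Slc2a4 were 0.99 and 1.16 lower, with Slc2a4 saturated on 4 of the 10 LFC arrays, Pfkfb2 0.66 lower and Slc16a3 0.83 higher, all at the same adjusted p. The fit left out the HFC array of Day 10 for Pgam1 and Pfkfb4, whose spots the scanner software marked as outliers. Over the members the median was -0.21, against 0.05 over all genes. At the 6 time points with both arrays of 1 class it was 0.02, with 20 members higher and 17 lower.

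Over weeks 3 to 18 alone, 0 members and 0.00925% of all genes (2) passed, and 2 members had p under 0.05, against 13.9% of all genes. This comparison was fitted on all 30 arrays of those weeks, so its SEs and p-values rest on the spread of the Kal-1 groups too. Pfkfb2 had the smallest p, with -3.38 ± 0.9998 in HFC and -2.20 ± 0.81 in LFC (SD, n = 6 each), 1.18 lower (SE 0.40, limma adjusted p = 0.35). Only 3 of those 6 HFC arrays had it well above background, so the HFC mean and the difference rest partly on dim spots. With all its probes averaged that difference was 0.17, in the other direction. Aldoa was 1.14 higher, with 6 of the arrays compared saturated for it. Levels on those arrays are lower bounds, so neither the size nor the direction of this difference is settled. Pgd, Slc2a3 and Pfkfb4 had differences of -1.29, 0.92 and -0.61.

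Over the days of both diets, 0 members passed and 1.41% of all genes did (304 of 21625). This fit had no term for the time point and counted the LFC and HFC arrays of a time point as independent. Its p-values therefore do not measure the spread between time points alone and may be too small. Before adjustment 4 members had p under 0.05, all with negative slopes, where 21% of all genes had such a p and 6.52% with a negative slope. Pygb, the brain-type glycogen phosphorylase, came nearest, with a slope of -1.46 per 100 days (SE 0.37, limma adjusted p = 0.0504). In LFC its level ran from -1.34 to 0.73 and in HFC from -2.13 to 1.66, and the latest array of HFC, Week 18, was its lowest. With brightness class in the model the slope was -1.25 and passed (adjusted p = 0.011), as did Gys1, which fell by 1.37 per 100 days, and Gys2, which rose by 1.91. These were 3 of 37 members in a fit where 1701 of 21625 genes passed, much the same share. Pfkfb3, which raises fructose 2,6-bisphosphate, had a slope of -0.74 and Gpi1 one of -0.49, neither past the threshold. Across the 37 members 30 slopes were negative, with a median of -0.36, against 0.05 over all genes. With scan day as a further block that median was 0.23, and 0 members and 1 of all genes passed. Each scan day held LFC and HFC arrays of only 1 day count, however, so that block takes up the days. That fit therefore cannot estimate a slope, and nothing is drawn from it.

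In the test of whether these slopes differ between the diets, 0 members and 0 of all genes passed, and 2 members had p under 0.05, against 15.2% of all genes. With brightness class in the model 663 genes and 0 members passed and 12 members had p under 0.05 before adjustment, and without Week 0 370 genes and 0 members passed. Eno2, the neuronal-type enolase, had the smallest p. Its slope was 2.01 more positive in HFC per 100 days (SE 0.65, limma adjusted p = 0.17), but it was well above background on only 7 of 10 LFC and 5 of 10 HFC arrays. Pfkfb2 followed with -1.52 (adjusted p = 0.29), which with all probes averaged was 0.38.

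**Figure D4:**
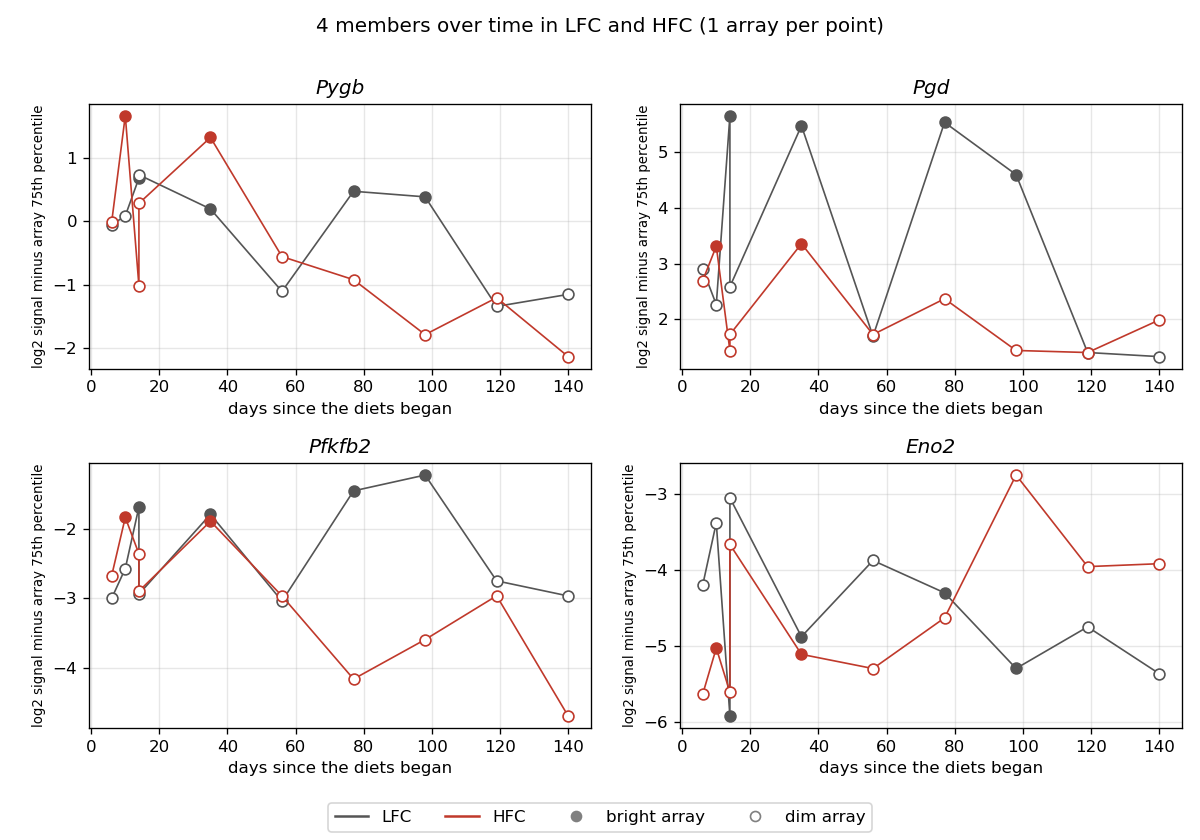
Levels of 4 members (vertical axis, log2 signal minus the array's 75th percentile) against days since the diets began (horizontal axis, Week 0 at day 14) in LFC (grey) and HFC (red), 1 array per point, filled where the array was bright. Pgd is above 4 on the 4 bright LFC arrays, and Pygb is below -1 on all 4 arrays of the last 2 time points.

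The muscle-type isoforms were set against the 12 skeletal muscle markers. Pgam2, the muscle phosphoglycerate mutase, followed their mean closely over the 38 arrays. Pearson's r was 0.97 and Spearman's rho 0.97, each with a permutation p of 1e-05, the smallest that 100000 permutations give, adjusted over the 37 members to 0.00037. It was 0.96 without the 2 arrays farthest from the median, 0.98 on the 11 bright and 0.97 on the 27 dim arrays. Its level went from -4.63 on the HF20 array of Week 6 to 4.06 on the HF75 array of Week 12, which also held the highest marker mean, 5.76. For Pfkm the ranges of bright and dim arrays overlapped but the medians were 3.70 and 1.31, so r is given within each class. Its r was 0.41 on bright and 0.85 on dim arrays, and 0.62 on dim arrays without that HF75 array, where Pfkm was at 3.97. Pgam1, the other phosphoglycerate mutase, had r of 0.35 and 0.14 in the 2 classes. By Pearson's r only Pgam2 passed of the 37 members. By Spearman's rho over all 38 arrays Ldha (rho 0.49, adjusted permutation p = 0.038) and Taldo1 (rho 0.46, adjusted permutation p = 0.047) passed as well. Pearson's r for Ldha was 0.71 on bright and 0.24 on dim arrays, and for Taldo1 0.47 and 0.33. Ldha was saturated on 8 and Taldo1 on 10 of the 11 bright arrays, so their levels there are lower bounds. How much of these levels came from muscle in the dissected tissue was not tested.

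**Figure D5:**
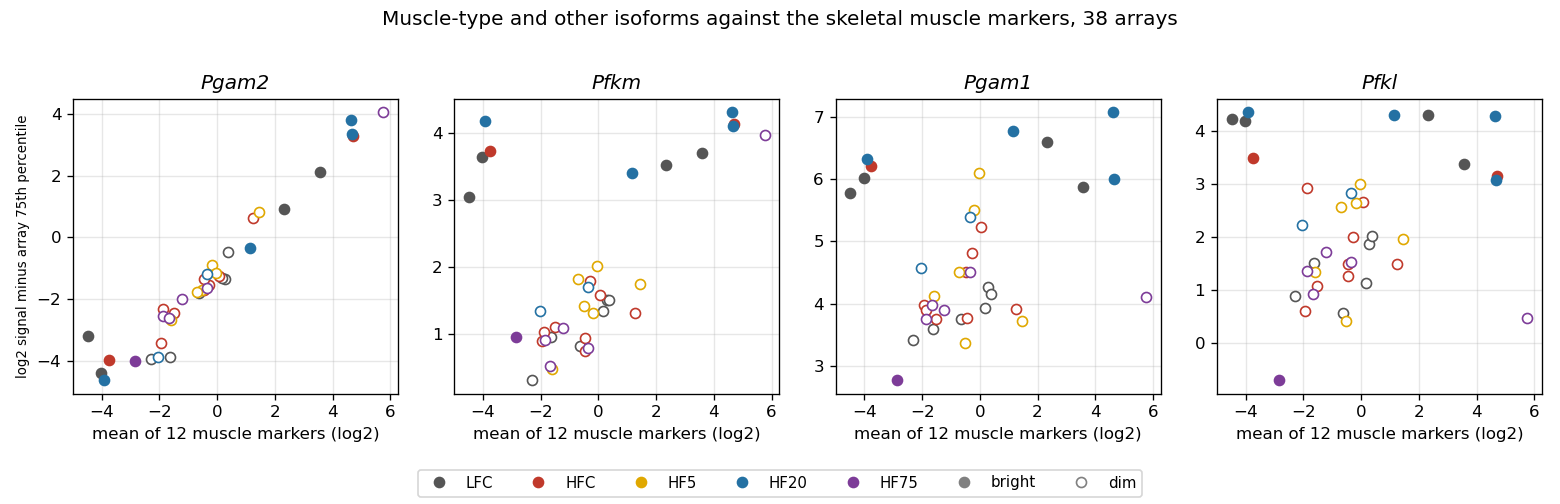
Levels of 4 members (vertical axis, log2 signal minus the array's 75th percentile) against the mean of the 12 skeletal muscle markers (horizontal axis) on 38 arrays, coloured by group and filled where bright. Pgam2 lies on 1 line from about -4.6 to 4.1, while Pfkm, Pgam1 and Pfkl have medians of 3.70, 6.11 and 4.197 on bright and 1.31, 3.98 and 1.51 on dim arrays.

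Other genes of glucose handling were followed in the same fits, 48 in all, of which 43 passed the filter. Among doses 9 of the 43 passed, 8 lower and 1 higher in HF75 than in HF20. Mlxipl, the glucose-responsive transcription factor ChREBP, had a difference of -4.51 and Ldhd, a D-lactate dehydrogenase, one of -3.68. Ppp1r3b and Ppp1r3c, which bring a phosphatase to glycogen, were 3.12 and 2.32 lower, and Gbe1, the glycogen branching enzyme, 2.39 lower. Pgls, of the pentose phosphate pathway, was 1.95 lower, the carrier Slc16a7 2.19 lower and Pgm2 2.28 lower, whereas Pgm1 was 1.47 higher. The other comparisons gave 0 of 43. In HFC against LFC the smallest p in this list was that of Slc2a5, the fructose transporter, 3.86 lower in HFC, followed by Pck1, which makes phosphoenolpyruvate, 1.16 higher (limma adjusted p of 0.59 and 0.65).

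The probes of a gene did not always give the same sign. Of the 37 members 13 had more than 1 detected probe, and in HF75 minus HF20 the signs differed for 3 of these, Hk1, Pfkfb2 and Pfkp, none of which passed. In HFC minus LFC they differed for 7. The members also varied more than other genes over the 38 arrays, with a median SD of 1.14, against 0.91 over all genes tested.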

How the data were processed

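Brown adipose RNA was measured on 38 one-colour Agilent arrays of 43803 spots and 40628 probes. Per the file headers the authors' scanner files, deposited as spot intensity, came from Feature Extraction 10.5.1.1 (the submitters' processing notes name 9.1), which subtracted background, and no between-array scaling had been applied. The authors also deposited a table of log2 values for some arrays, used only as an alternative and without its Week 15 columns, which did not follow the scanner values (correlation between -0.0038 and 0.0027).

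From the processed intensity, log2 values minus each array's 75th percentile were taken, control and outlier spots were left out, spots of a probe were averaged and each gene name kept its probe of highest mean. Names well above background on fewer than 6 arrays were dropped, which left 21625. limma 3.58.1 (R 4.3.3, lmFit and eBayes, two-sided) was fitted on all of them, with Benjamini-Hochberg adjustment over all genes and a threshold of 0.05. Time point was a block in every fit but that of the slopes over days, which had a term for diet only. The diet fits used 20 arrays and the dose fits 30, and differences among doses were tested by a moderated F test of HF20 and HF75 against HF5. Slopes are per 100 days, with Week 0 as day 14, as the methods given for the liver arrays of the same feeding experiment count it. The deviations of arrays of 1 time point from their group means correlated between -0.56 and 0.73.

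In each comparison the 5 members with the smallest p and every member past the threshold were named, and the other members were given by range. The members and lists were chosen with earlier results of these data known. Alternatives covered normalization, background correction, filter, probe choice, blocks, covariates and each time point left out. Scan day as a block, outlier spots kept, the HF75 array of Week 3 left out and time points of 1 brightness class were added after the data were seen. No depth applies to arrays, and their number limits the precision.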

Additional observations from a re-analysis of the deposited data

Results flagged for a closer look

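In 9 of 185 member and group combinations (4.86%) 1 array lay far from the others of its group, and chance alone gives about 1 in 20. On the HF75 array of Week 12 Pfkm was at 3.97 and Pgam2 at 4.06, both high, and that array also held the highest muscle marker mean. On the HF75 array of Week 3, Gapdh was low at 4.71 and Ldhb at 2.87. On the HF5 array of Week 18, Slc2a3 was high at 1.01 and Pfkfb1 at 1.12. In HF20, Ldha was low at 5.34 in Week 6, Ldhb was low at 5.54 in Week 18 and Tkt was high at 7.14 in Week 9, and 3 or 4 of the 6 HF20 arrays were saturated for each of these genes.

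The doses differed for 16 members by the moderated F test of limma. HF75 minus HF20 was -4.59 for Gys1, -3.45 for Fbp2, -2.80 for Eno1, -2.63 for Pfkl, -2.62 for Hk2, -2.61 for Slc2a4, -2.60 for Pfkfb1 and -2.57 for Pygl. It was -2.24 for G6pdx, -2.23 for Pkm2, -2.18 for Pgam1, -2.16 for Pygb, -1.80 for Pgk1, -1.67 for Tpi1, -1.32 for Tkt and 1.99 for Slc2a1. The sizes for Gys1 and Fbp2 rest on dim HF75 spots and were -1.36 and -1.09 with normexp background correction.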

How the results depend on the processing

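The count of members differing among doses, 16 of 37, was the value that moved most with the processing. It was 0 with normexp background correction, 0 with no filter on dim probes (smallest adjusted p of a member 0.0501), 0 with brightness class in the model, 0 with the muscle marker mean as a covariate (0.0526) and 0 without the HF75 array of Week 3 (0.0635). In these fits 0 of all genes passed. It was 17 with quantile normalization (11.1% of all genes passing), 19 with all probes averaged (14.1%), 22 with slide as a random block (29.6%) and 11 with scan day as a further block (10.6%), against 13.7% as reported, and from 0 to 22 when 1 time point was left out. With no replicate block, that is without pairing by time point, it was 8 (6.07% of all genes passing), all of them among the 16. In the other comparisons no call of a member changed without the block. The slopes over days were fitted without it from the start, because the block would take up the days. None of the 16 changed direction in any setting in which it was tested. In HF20 against HFC the count ran from 0 to 10 when a time point was left out. Slopes over days gave 0 to 1 when a time point was left out, 1 with quantile normalization, 1 with normexp, 1 with all probes averaged and 3 with brightness class in the model. Calls over all genes for slopes went from 304 to 1701 with brightness class in the model. With scan day as a block there was 1, but that block takes up the days, so the fit cannot estimate the slopes. Directions turned for Pfkfb2 in HFC minus LFC (0.024 with normexp, 0.15 with all probes averaged), over weeks 3 to 18 (0.0048 and 0.17) and in diet by day (0.38 with all probes averaged). They also turned for Hk1 in HF5 minus HFC (-0.55 with all probes averaged) and for the slope of Gys1 (0.095 with normexp). The cause of these turns was not tested. Gpi1 had a slope of 0.58 with scan day as a block, a fit that cannot estimate it. With 1 array per group and time, differences within a time point have no replicate, and saturated or dim spots bound the size of what can be measured.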
